A study of Caenorhabditis elegans with 4 samples.

Results

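The COH-1 peaks on chromosome II were taken as the rows on II of the peak list deposited for the whole series (the series list). They numbered 2411 of 15765 peaks. COH-1 was mapped by ChIP-seq, in which DNA bound by a protein is precipitated with an antibody and sequenced, in *Caenorhabditis elegans* hermaphrodites labelled as germline-containing young adults. The labels give 4 samples, 2 of them COH-1 ChIP (replicates 1 and 2) and 2 of them input DNA, and all carried the allele fem-2(b245), with growth at 20 °C per the series record. The gene fem-2 acts in male sexual fate and sperm formation. Worms were frozen and ground, crosslinked for 20 minutes with EGS, a crosslinker that joins proteins, and for 10 minutes more with EGS plus formaldehyde. The growth protocol describes gravid adults rather than young adults. The antibody was a rabbit polyclonal serum raised against COH-1, and its catalogue number in the antibody description is not the one in the series title. The labels give both replicates this antibody and genotype, but the replicate 2 list was deposited under a name that also holds csr1, which the labels leave unexplained. The gene csr-1 encodes an Argonaute protein of a germline small RNA pathway. Which antibody or worms the replicate 2 list came from is therefore in doubt, and so is every value below that uses it, shares of peaks in both replicate lists included. Whole animals were used, so the cell types behind a peak cannot be told apart. Besides the series list there is 1 list for each ChIP replicate, with 376 peaks on II in replicate 1 and 613 in replicate 2. No values of the input samples were used here, and the labels do not state whether separate cultures gave the replicates, so the spread between them may be technical.

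Cohesin is a ring-shaped protein complex that holds sister chromatids together and shapes chromosomes into loops. Its kleisin subunit closes the ring, and COH-1 is one of several kleisins in this worm, others of which serve in meiosis. Worm chromosomes have no single centromere. Each autosome has a central region rich in highly expressed genes with little recombination, flanked by 2 arms with more recombination and more repeats. No genome or gene annotation of the build of these lists, WS220, was used here, so peaks are given by position alone, without gene names or sequence. All positions below are on II in WS220, counted from 1.

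Chromosome II held 158 COH-1 peaks per Mb in the series list, which covered 1.56 Mb or 10.2% of its length. II was cut into 3 equal parts of 5.09 Mb, which do not follow the borders of the arms and the central region. The left part was the sparse one, with 81.1 peaks per Mb, against 237 in the middle and 155 on the right. Peaks took up 4.12% of the bases of the left part, 16.6% of the middle part and 10.0% of the right part. Coverage was thus 4.03 times higher in the middle than on the left, and 2.43 times higher on the right than on the left.

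Both replicate lists had the same order of the parts. In replicate 1, coverage was 3.27% on the left, 12.8% in the middle and 8.30% on the right. In replicate 2 it was 5.70%, 17.8% and 12.1% in the same order. The right-to-left ratio of coverage was 2.53 in replicate 1 and 2.13 in replicate 2, or 2.33 ± 0.29 (mean ± SD, n = 2), and in peaks per Mb it was 1.86 ± 0.24. The left part lay below the right part in each list. Amounts given side by side for different lists are not like for like, since the lists differ in caller, number and width of peaks.

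**Figure D1:**
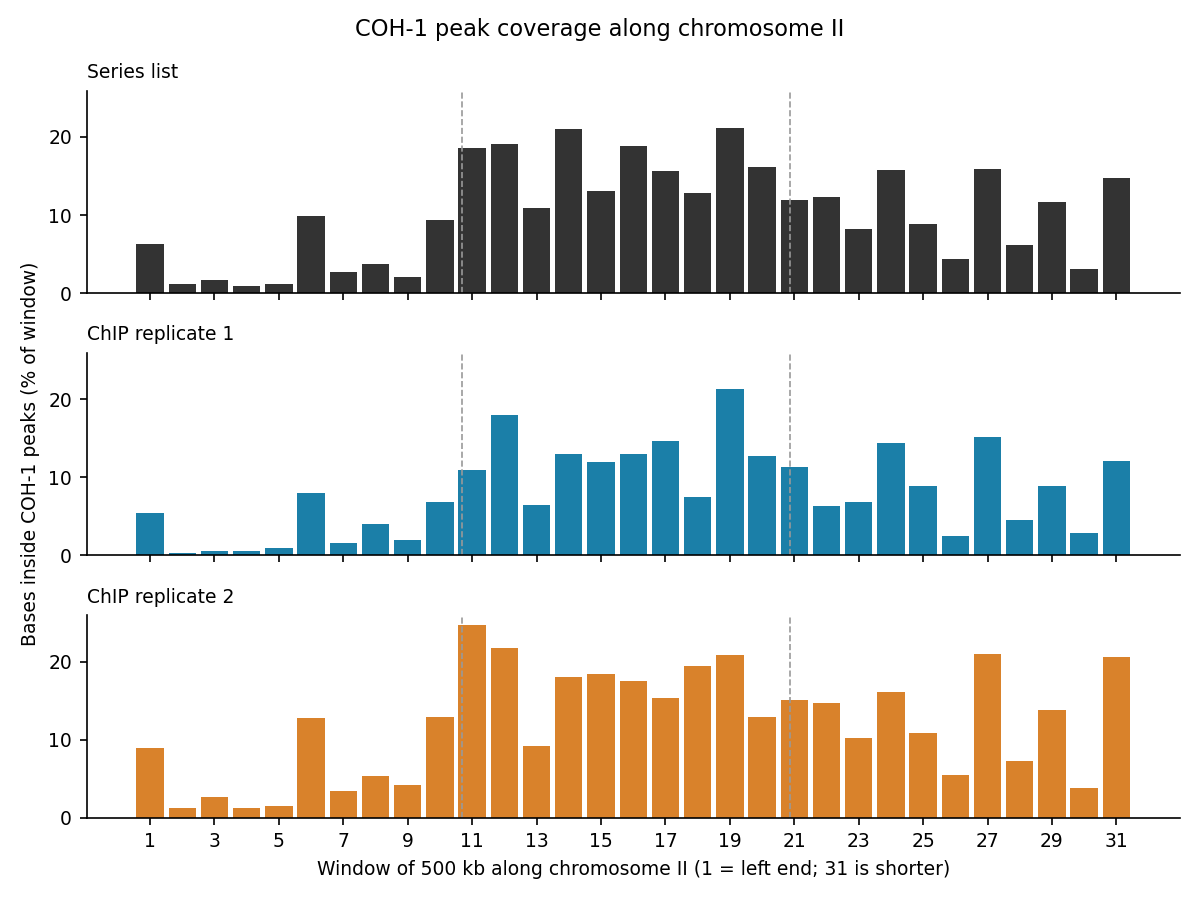
Share of the bases of each 500 kb window of chromosome II that lie inside COH-1 peaks (y axis, percent) against window number from the left end (x axis), for the series list and both replicate lists; dashed lines mark the borders between parts. Windows 2 to 5 are the lowest in the series list and stay at or under 2.61% in all 3 lists, between the higher windows 1 and 6.

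Windows of 500 kb showed that the left part was not evenly sparse. Of the 30 whole windows, the 4 with the fewest bases in series peaks stood side by side. They were window 4 (1500001 to 2000000) with 0.886% of its bases in 12 peaks, window 5 with 1.12% in 13 peaks, window 2 with 1.21% in 20 peaks and window 3 with 1.68% in 23 peaks. In replicate 1 these 4 windows held 0.329% to 0.895% and in replicate 2 1.23% to 2.61%. Windows 1 and 6 on either side stood above them. Window 1, the left end, had 62 series peaks over 6.29% of its bases, with 5.44% in replicate 1 and 8.92% in replicate 2. Window 6 (2500001 to 3000000) had 67 series peaks over 9.90%, with 7.99% and 12.8% in the replicates.

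Windows 1 and 6 were singled out after their values were seen. Together they held 129 series peaks per Mb, while windows 2 to 5 and 7 to 9 held 45.7 per Mb. Bases in peaks were 8.10% in the first group and 1.93% in the second. The contrast was 6.72% against 1.40% in replicate 1 and 10.8% against 2.81% in replicate 2. The sparse stretch ended at window 10 (4500001 to 5000000), where series coverage was 9.37%, and reached 18.6% in window 11.

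Within window 6 the peaks sat at its right end. Of 10 bins of 100 kb between 2400001 and 3400000, the bin 2900001 to 3000000 had 32 series peaks over 32.6% of its bases, with 28.4% in replicate 1 and 42.2% in replicate 2. The bin before it had 14.1%, and the bin 2500001 to 2600000 had no peak in any list. With series peaks joined across gaps of at most 20 kb, the longest group in that bin ran from 2962574 to 2993154, with 21 peaks over 76.5% of its 30.6 kb. Of those peaks, 71.4% were overlapped by both replicate lists.

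The 4 windows with the most bases in series peaks were all in the middle part. Window 19 (9000001 to 9500000) had 21.1%, window 14 (6500001 to 7000000) 21.01%, window 12 (5500001 to 6000000) 19.1% and window 16 (7500001 to 8000000) 18.8%. Window 19 also led in replicate 1, at 21.4%, and stood at 20.9% in replicate 2. Window 14 ranked lower within both replicate lists, 7 of 30 in each, at 13.0% and 18.0%. Window 12 held most peaks of any whole window, 159 in the series list. Across the 30 whole windows, coverage in the replicates had a Spearman's rho of 0.90 and a Pearson's r of 0.88. These windows lie on 1 chromosome and are not independent, and the replicates share the assay and, by their labels, the antibody. Replicate values were far apart in window 11, at 10.9% (rank 11) and 24.7% (rank 1). In window 18 they were 7.50% (rank 15) and 19.5% (rank 5). Both windows were chosen after the values were seen.

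The right part was uneven as well, and denser than the left. Window 27 (13000001 to 13500000), singled out after its values were seen, held 127 series peaks over 15.9% of its bases, with 15.2% in replicate 1 and 21.03% in replicate 2. The 8 other whole windows on the right together had 8.80% in the series list. Window 30 (14500001 to 15000000) fell to 3.11%, and the shorter window 31 at the right end rose to 14.7%. Both ends of II were richer than the sequence next to them, a comparison added after the windows were seen. In the series list the last 250 kb on the left had 9.15% of bases in peaks against 2.26% in the next 1 Mb, and on the right 16.3% against 7.41%. Both replicate lists had the same direction at each end, with 7.32% against 1.33% on the left in replicate 1. Of the 8 ends of the other autosomes, 6 were above their neighbouring 1 Mb in each list, and the left ends of III and IV were below it.

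**Figure D2:**
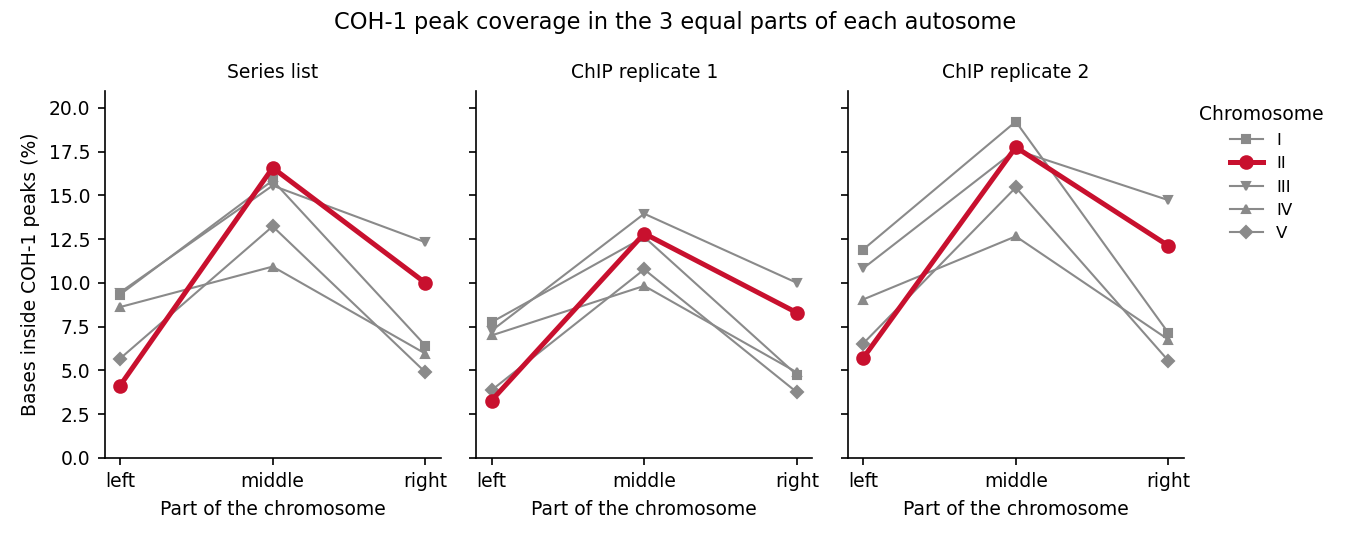
Share of bases inside COH-1 peaks (y axis, percent) in the left, middle and right part of each autosome, for the series list and both replicate lists; chromosome II is the thick red line and the others are grey. On II the line starts at 4.12%, 3.27% and 5.70% and ends higher on the right than on the left in each list, as it does on III.

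Against the other autosomes, II had a middling total and the highest right-to-left ratio. Its coverage was not more uneven over 500 kb windows, with a coefficient of variation of 0.64 in the series list against 0.54 to 0.83 on the other 4, 0.70 against 0.60 to 0.87 in replicate 1 and 0.59 against 0.55 to 0.74 in replicate 2. Its peak density ranked 3 of 5 in all 3 lists, and its coverage did as well. In the series list the other 4 ranged from 122 to 191 peaks per Mb. The right part exceeded the left on II and III only, whereas on I, IV and V the left part was denser, in all 3 lists and by both measures. The right-to-left ratio of coverage on II, 2.43, compared with 0.688 to 1.30 on the other 4, and in the replicates 2.53 compared with 0.611 to 1.38 and 2.13 with 0.599 to 1.36. II had the highest ratio of the 5 autosomes each time. The left part of II had the lowest coverage of all 15 autosome parts in the series list and in replicate 1, and the second lowest in replicate 2. By peaks per Mb it ranked 2 from the lowest in the series list and in replicate 1, and 4 in replicate 2. One chromosome against 4 cannot give an exact rank p under 0.2, so no test was made of these differences. Repeats and mappable sequence were not examined, so their part in the sparse left part was not tested.

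The denser middle was also pronounced on II. The middle-to-outer ratio of coverage was 2.35 in the series list, second of 5 after V at 2.51. It was 2.22 in replicate 1 and 1.99 in replicate 2, where it ranked 2 and 3 of 5, or 2.10 ± 0.16 (mean ± SD, n = 2). The position that splits the series peaks of II into equal numbers lay at 55.3% of its length, against 47.5% on I, 52.7% on III, 50.2% on IV and 50.4% on V. In replicate 1 it was 56.1% and in replicate 2 56.6%, the farthest right of the 5 autosomes in all lists.

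**Figure D3:**
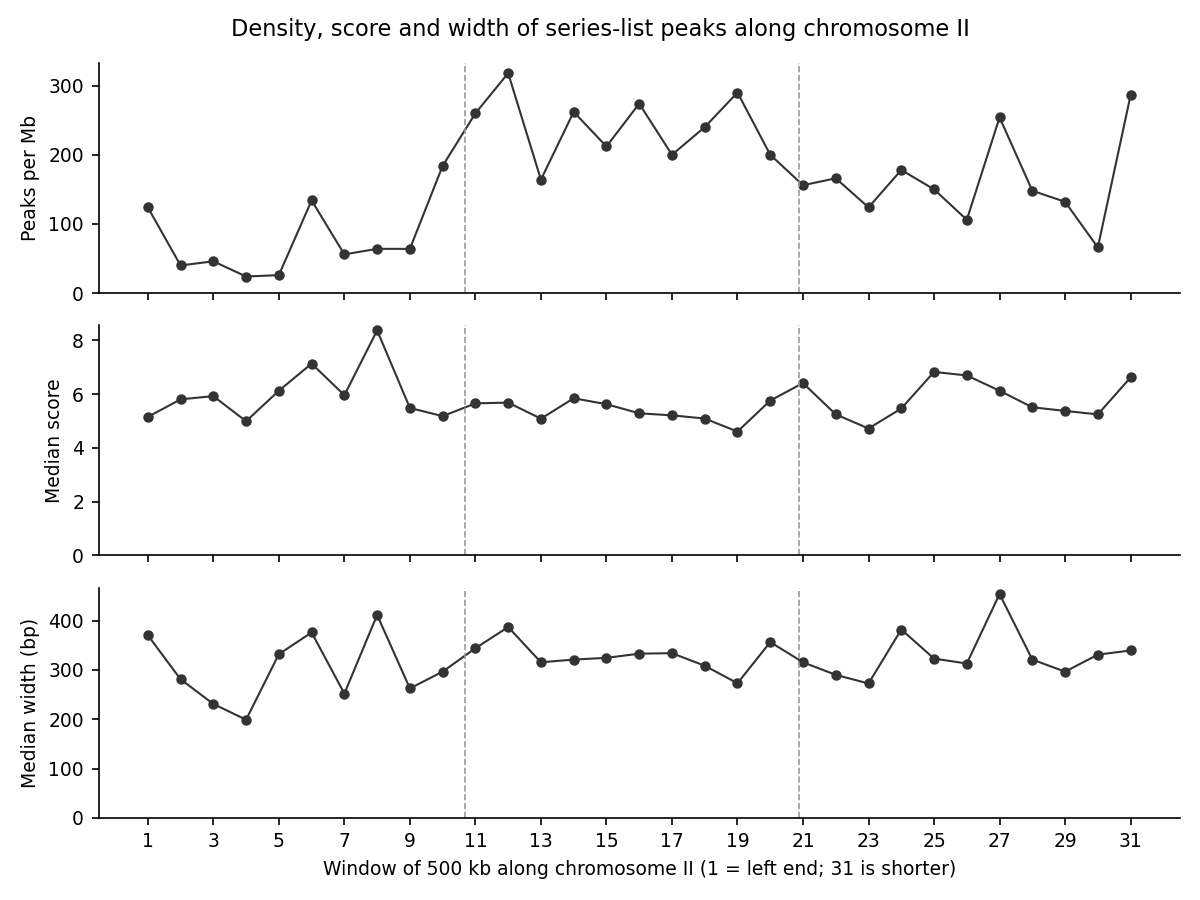
Peaks per Mb, median score and median width (bp) of series-list peaks in the 31 windows of 500 kb along chromosome II, from the left end; dashed lines mark the borders between parts. Density runs from 24 to 318 peaks per Mb, while median score stays between 4.61 and 8.38 and median width between 199 and 454 bp.

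In the series list the median score of the sparse left part was not below that of the other parts. The score of each peak is the authors' own, and no source says what it measures, so scores were compared only within a list. In the series list the median score was 6.11 in the left part, 5.32 in the middle part and 5.83 in the right part, with quartiles of 4.17 and 8.85, 3.65 and 8.82, and 3.74 and 9.54. Median width was 319, 330 and 323 bp. Across the 30 whole windows, coverage and median score had a Spearman's rho of -0.15, and coverage and median width 0.44, as a description across windows that share 1 list. In the replicate lists the left part stood at or below the middle part. Replicate 1 had median scores of 141 on the left, 155 in the middle and 137 on the right, and replicate 2 had 245, 327 and 265. Median widths in replicate 2 were 1379, 1724 and 1399 bp. Inside the left part, windows 1 and 6 had a median score of 6.28 in the series list and windows 2 to 5 and 7 to 9 had 6.13. In replicate 1 the same groups had 237 and 91.6, over 23 peaks each, and in replicate 2 500 and 178, over 33 and 53 peaks. Window 10, a denser window of the left part outside both groups, had 5.185 in the series list. Its median was 115 in replicate 1, over 10 peaks, and 138 in replicate 2, over 32 peaks. That was below the sparse group in the series list and replicate 2, and above it in replicate 1. Single windows varied in replicate 2, where windows 3 and 7 of the sparse group had medians of 690 and 927, over 8 and 4 peaks, above those of windows 1 and 6.

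The parts did differ in their wide peaks. Of 35 series peaks of 5 kb or more on II, 26 lay in the middle part, 8 in the right part and 1 in the left part. As a share of the peaks in each part these were 2.15%, 1.01% and 0.242%. The left parts of the other autosomes held 10 to 14 such peaks each. The sparser outer part of each, which is not the left on I, IV and V, held fewer on those 3. These were 6 on I right (1.17%), 14 on III left (2.07%), 3 on IV right (0.542%) and 7 on V right (1.37%). In replicate 1, 9.38% of the peaks on the left were this wide, 18.1% in the middle and 14.6% on the right. In replicate 2 these were 10 of 125 peaks on the left, then 15.5% and 12.3%. Of the 35 wide peaks, 19 were overlapped by both replicate lists (54.3%, exact Clopper-Pearson 95% interval 36.6 to 71.2) and 3 by neither. On the 4 other autosomes, 94 of 132 such peaks were in both lists (71.2%, 62.7 to 78.8) and 12 in neither. Wide peaks on II were thus in both lists less often than those elsewhere, with intervals that overlap.

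As a whole, the widths and scores of peaks on II were close to those of the other autosomes in the series list. Median width in the series list was 324 bp on II and 315 to 327 bp on the other 4. Median score was 5.59 on II and 5.21 to 5.77 on the other 4. The strongest II peak scored 68.5, while the highest score on each of the others lay between 89.8 and 143. In the replicate lists II had the lowest median score of the 5 autosomes, at 142 against 146 to 174 in replicate 1 and 287 against 329 to 391 in replicate 2. Its median width was 1949 bp against 1830.5 to 2230 bp in replicate 1, rank 4 of 5. In replicate 2 it was the lowest, at 1498 bp against 1566.5 to 1756 bp. Of the 1% of series peaks with the highest scores, 27 of 158 were on II (17.1%), where 15.3% of all series peaks lay. By part these were 6 on the left, 8 in the middle and 13 on the right. II did not exceed its share of the list in the top 5% (14.7%) or the top 10% (14.8%), nor in replicate 1, where it held 3 of the 26 peaks in the top 1% and 14.5% of all peaks. Width and score rose together on II, with a Spearman's rho of 0.68 over its series peaks, 2 properties that the caller took from the same reads.

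Peaks on II came in groups. The median gap from the end of one series peak to the start of the next was 469 bp, and 85.3% of 2410 gaps were 5 kb or shorter (95% interval 83.8 to 86.7). The other autosomes ranged from 83.9% to 86.9%. Spacing differed by list. The median gap on II was 3501 bp in replicate 1, with 54.4% of gaps 5 kb or shorter, and 2322.5 bp in replicate 2, with 60.1%. In the left part the series list had a median gap of 649 bp and 77.7% of gaps were 5 kb or shorter. The middle part had 406 bp and 87.4% and the right part 480 bp and 86.2%. In replicate 1, 52.4% of gaps on the left, 51.4% in the middle and 60.5% on the right were 5 kb or shorter, so the left part was not the lowest there. Replicate 2 had 58.1%, 58.7% and 63.8% in the same order.

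**Figure D4:**
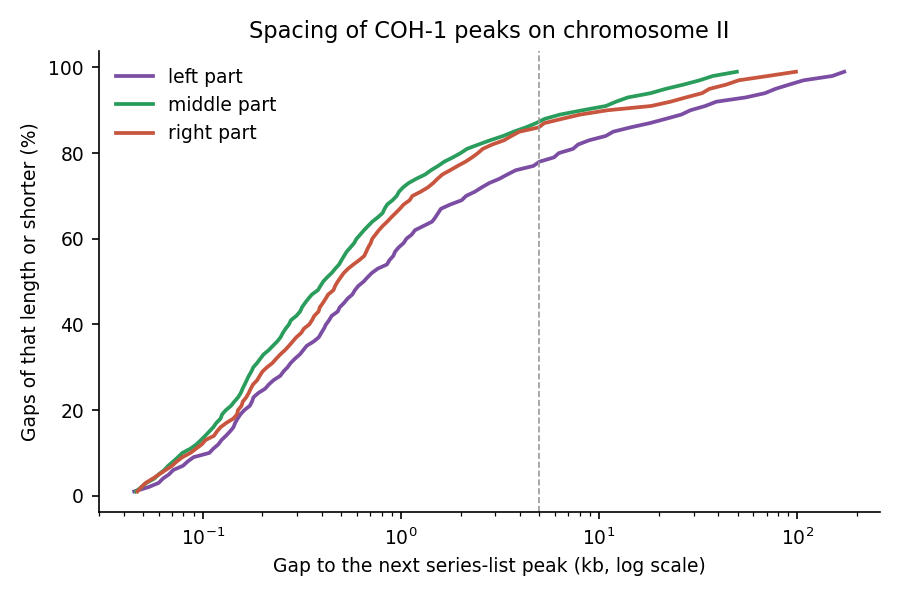
Cumulative share of gaps between neighbouring series-list peaks on chromosome II (y axis, percent) against gap length (x axis, kb, log scale), by part; the dashed line marks 5 kb. At that length the left part has reached 77.7% and the other parts 86.2% and 87.4%.

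When series peaks were joined across gaps of at most 20 kb, II fell into 189 groups, 54 on the left, 66 in the middle and 69 on the right. Groups on the left held a median of 4 peaks over 10.4 kb, those in the middle 10 peaks over 24.7 kb and those on the right 8 peaks over 16.4 kb. The longest group ran 192 kb from 6776466 to 6968536 with 76 peaks. The group with most peaks ran from 5836366 to 5969545 and held 100 peaks, over 47.8% of its bases, with replicate 1 at 48.0% and replicate 2 at 48.8%. Single peaks with no neighbour within 20 kb numbered 31. Their median width was 211 bp, and 1 of the 31 was overlapped by both replicate lists, against 37.6% of the other II peaks. The other autosomes were alike, with 0 of 38 such peaks in both lists on I, 1 of 29 on III, 2 of 29 on IV and 2 of 50 on V. Median widths there were 196.5 to 246 bp.

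Long stretches of II had no peak in any list. There were 66 of 50 kb or more, making up 6.52 Mb or 42.7% of the chromosome. The other autosomes had 47.7% (I), 38.2% (III), 52.7% (IV) and 56.4% (V). On the left 30 such stretches took up 69.1% of the left part, against 16.4% of the middle part and 42.5% of the right part. That was 3.52 of 5.09 Mb on the left. In the sparser outer part of each other autosome they took up 3.32 of 5.02 Mb (I, right), 2.20 of 4.59 Mb (III, left), 3.92 of 5.83 Mb (IV, right) and 4.96 of 6.97 Mb (V, right). An outer part this empty was thus not particular to II. Of the 10 longest, 9 were on the left. The longest was 316 kb from 766975 to 1083014, followed by 217 kb from 1977827 to 2195277. The next were 194 kb on the right from 14613685 to 14807624, then 192 kb from 328499 to 520022 and 189 kb from 2459977 to 2649124.

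Overlap with the replicate lists was then counted, which tells how many series peaks of II have a counterpart in those lists. Of the 2411 series peaks on II, 897 were overlapped by at least 1 bp by both replicate lists (37.2%, 95% interval 35.3 to 39.2). The share over all chromosomes was 36.2%. Only replicate 1 overlapped a further 130 (5.39%) and only replicate 2 a further 731 (30.3%). The remaining 653 (27.1%) were in neither list, where the share over all chromosomes was 27.8%. The 4 other autosomes ranged from 32.5% on V to 36.8% on I for both lists. These intervals treat peaks as independent, which neighbours are not, and cover counting error only. Since all 3 lists may come from the same reads, an overlap is no independent support for a peak.

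The share found in both lists was nearly the same in each part of II. It was 37.3% on the left (154 of 413, 95% interval 32.6 to 42.2), 37.2% in the middle (450 of 1209, 34.5 to 40.0) and 37.1% on the right (293 of 789, 33.8 to 40.6). It varied inside the left part. In windows 1 and 6 it was 47.3%, and in windows 2 to 5 and 7 to 9 it was 28.7%, or 46 of 160 peaks. Window 10, also in the left part and with 9.37% of its bases in series peaks, had 27.2% (25 of 92). A denser window on the left thus did not always have a higher share. The sparse windows were not alike, since window 8 had 53.1% (17 of 32) and window 3 had 8.70% (2 of 23). Peaks in neither list made up 24.03% in windows 1 and 6, 39.4% in windows 2 to 5 and 7 to 9, and 23.9% in window 10.

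**Figure D5:**
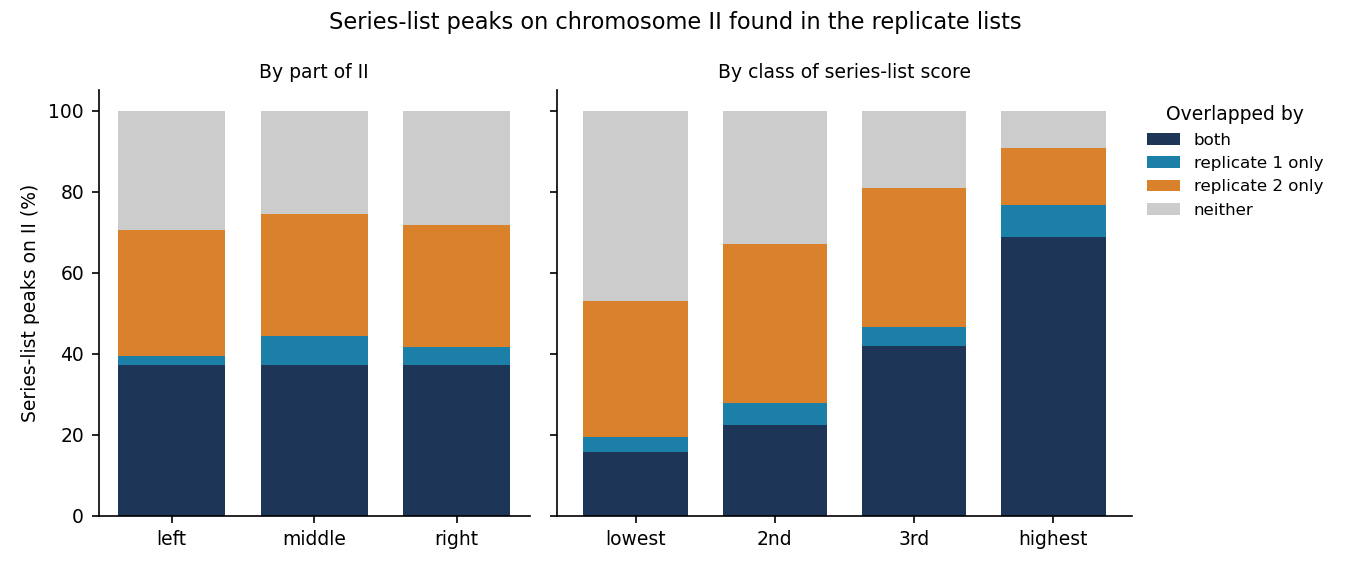
Share of series-list peaks on chromosome II (y axis, percent) overlapped by both replicate lists, by replicate 1 only, by replicate 2 only and by neither, by part (left panel) and by class of series-list score, lowest to highest (right panel). The share in both is 37.3%, 37.2% and 37.1% in the parts and rises from 15.7% to 68.9% over the classes.

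The share of series peaks in both replicate lists rose with their score. The series list was divided by score into 4 classes of equal size over all chromosomes. In the lowest class 15.7% of II peaks were in both replicate lists, then 22.4%, 42.0% and 68.9% in the next. On the 4 other autosomes the shares were 14.0%, 20.8%, 38.1% and 67.0%. In the highest class, 78.4% of left peaks were in both lists (76 of 97, 95% interval 68.8 to 86.1), 63.6% of middle peaks (57.7 to 69.2) and 71.5% of right peaks (64.9 to 77.4). The order of the parts changed between classes. In the class just below, the shares were 33.1% on the left (42 of 127), 47.1% in the middle and 40.0% on the right. They were 19.0%, 25.2% and 19.4% in the next class down, and 19.1%, 16.5% and 13.0% in the lowest. II peaks in both lists had a median width of 589 bp and a median score of 8.53, and those in neither 213 bp and 4. Median width of II peaks in both lists was 249 bp in the lowest class and 956 bp in the highest. A wider peak meets the rule of 1 shared base more easily, and the share of width in the rise was not tested.

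The replicate peaks on II were compared directly. Replicate 2 overlapped 338 of the 376 peaks of replicate 1 (89.9%, 95% interval 86.4 to 92.7), where the share over all chromosomes was 87.1%. Replicate 1 overlapped 297 of the 613 peaks of replicate 2 (48.5%, 44.4 to 52.5), where the share over all chromosomes was 51.2%. By part, replicate 1 peaks were recovered at 96.9% on the left (62 of 64, 89.2 to 99.6), 85.7% in the middle (156 of 182, 79.8 to 90.5) and 92.3% on the right (120 of 130, 86.3 to 96.2). Replicate 2 peaks were recovered at 42.4% on the left, 50.2% in the middle and 49.8% on the right. With replicate 2 divided in the same way, 128 of 134 II peaks of the highest class were found in replicate 1 (95.5%), and in the lowest class 26 of 160 (16.2%). Replicate 1 peaks showed no such rise, with 89.0%, 87.2%, 93.3% and 90.2% found in replicate 2 from the lowest class to the highest. The strongest replicate 2 peaks share a ceiling near 3100, reached or passed by 60 peaks on II, and are poorly ordered among themselves.

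All 376 replicate 1 peaks on II were overlapped by the series list, as were 590 of 613 replicate 2 peaks (96.2%). A replicate peak often covered several series peaks. On II 71.5% of the peaks of replicate 1 and 58.9% of those of replicate 2 overlapped more than 1 series peak, with means of 2.77 and 2.78 per overlapped peak.

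The 10 series peaks of II with the highest scores among those in both replicate lists fell into 5 places. The highest was a peak of only 758 bp at 2969343 to 2970100 in the left part, with a score of 68.5, which ranked 26 in the whole series list. It lay inside a replicate 1 peak of 11406 bp and a replicate 2 peak of 17487 bp, both with a score of 3100 in their own lists. The same 2 replicate peaks covered 2 more of the 10, at 2971772 to 2975387 (score 60.4) and 2977331 to 2980336 (score 55.0). This place in the sparse left part thus held 3 of the 10 highest-scoring II peaks in both replicate lists.

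On the right, 4 of the 10 lay in 1 place, at 11619734 to 11624421 (score 61.3), 11630996 to 11634556 (58.5), 11634672 to 11636371 (53.8) and 11636444 to 11641054 (53.2). A single replicate 1 peak of 30375 bp and a single replicate 2 peak of 31698 bp spanned all 4. Those wide peaks scored 242 and 1497 in their lists, with ranks of 930 of 2587 and 831 of 3714. Both scores were above the II medians of their lists, 142 and 287. Another peak on the right, 11148042 to 11151350, scored 57.9, with 1269 in replicate 1 and 93.3 in replicate 2, where the peak over it was 23004 bp wide.

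In the middle part, 8122060 to 8128415 scored 54.5 and 9283624 to 9291557 scored 51.7. The second was matched closely by both replicates, in peaks of 9048 and 9931 bp that each scored 3100. The first lay in peaks of 18100 bp (score 323) and 19957 bp (score 1216). High scores in the series list were thus not always among the highest in the replicate lists. The replicate 2 score of 93.3 given above lay below the II median of that list, 287.

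Of the 5 widest series peaks on II, 1 was in both replicate lists. It spanned 14031307 to 14048678, or 17372 bp, with replicate peaks of 19153 and 28011 bp. The widest, 24642 bp at 10539367 to 10564008, scored 64.7 and was covered by a replicate 2 peak of 27869 bp, while the nearest replicate 1 peak lay 8340 bp away. The next, 23960 bp at 5320920 to 5344879, was likewise in replicate 2 alone, in a peak of 33231 bp with a score of 93.0. A peak of 8984 bp at 9602373 to 9611356 was in replicate 1 alone. A peak of 10661 bp at 6823743 to 6834403, with a score of 41.6, was in neither, and replicate peaks lay 14581 and 10176 bp away.

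That last peak was also the highest-scoring II peak in neither list. The others at the top of this class were 6348301 to 6353291 (score 35.8) and 6819131 to 6823622 (score 32.0). All 3 were in the middle part, where 50.1% of all II series peaks lay. A group of 46 series peaks over 124 kb, from 7595507 to 7719981, was picked after its values were seen. Series peaks covered 24.6% of it, while replicate peaks covered 5.30% and 5.93%, and 2.17% of its peaks were in both lists.

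The replicate peaks of highest score without a partner are given next, and 4 of the 6 lay in the middle part. That part held 48.4% of all II peaks of replicate 1 and 45.2% of those of replicate 2, so these few peaks do not set it apart. In replicate 1 they were led by 9496793 to 9505537 (score 1701 in that list), 9613755 to 9627217 (1592) and 5926194 to 5932572 (1494), and the distances to the nearest replicate 2 peak were 52792, 12018 and 7496 bp. In replicate 2 the leading ones were 6643468 to 6648442 (2472), 15038507 to 15041025 (1586) and 13677455 to 13682877 (1581), and the distances to replicate 1 were 2559, 4427 and 159 bp. All 6 were overlapped by series peaks.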

How the data were processed

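COH-1 ChIP-seq peaks were analysed from 3 deposited lists, 1 for the series and 1 for each ChIP replicate. Per the submitters' processing notes the authors used BWA and ce10; per the file headers the build is WormBase WS220. The files name MACS v2 as the source of the series list and MACS as that of the replicate lists. No source used here gives caller versions, thresholds, the use of the inputs or the pooling of replicates. The score of each peak is the authors' deposited value, and what it measures is not stated. Read counts per peak were not given, so depth is unknown. Narrow or broad calling and the joining of neighbouring signal can change peak numbers and widths.

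Positions were read with pandas 2.3.3 under Python 3.11.15, intervals computed with SciPy 1.17.1 and NumPy 2.4.6, and figures drawn with matplotlib 3.10.9. The largest peak end in any list, 15279367 on II, stood for chromosome length. Peaks were placed in 3 equal parts and in windows of 500 kb by their midpoints, and bases in peaks were cut at the borders. Overlap meant 1 shared base or more. Classes of score were 4 equal divisions of the whole list. Shares carry exact (Clopper-Pearson) 95% intervals. No p-value was computed, since 2 replicate lists and 1 chromosome give no test. Interval counts were checked on simulated peaks. Peaks, gaps and windows were named by rule: the 10 highest scores in both replicate lists, the 5 widest peaks, the 3 highest scores without a partner in each replicate list and in neither list, the 5 longest empty stretches, and the 4 fullest and 4 emptiest windows. Chromosome II and these rules were chosen with earlier results of these data known. Alternatives changed the score threshold, the joining of peaks, the overlap, the parts, the windows and the list.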

Additional observations from a re-analysis of the deposited data

How the results depend on the processing

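Of 37 alternatives to 10 results on chromosome II, 15 stayed within the tolerance used (the SD of the replicate lists, or the 95% interval of a share) and 22 moved beyond it. None of those for the ratio of right to left put the left above the right. None of those for the ratio of middle to outer parts put the outer parts above the middle. The alternatives to the other results could not reverse either order. The density of II relative to the other autosomes, 1.05, ran from 1.03 to 1.15 in the single replicate lists. The log2 ratio of right to left, 0.93, ran from 0.76 to 1.02 in them, and became 1.28 in bases, 1.20 with the chromosome cut into 5 parts and, in 2 alternatives chosen after seeing the data, 1.87 as a ratio of median windows and 1.16 without windows 1 and 6. The log2 ratio of middle to outer parts, 1.01, became 0.83 with the upper 50% of peaks by score, 0.83 with peaks within 500 bp joined, 1.23 in bases and 0.82 with 5 parts, and ran from 0.72 to 0.91 in the single replicate lists. The ratio of median scores to the other autosomes, 1.01, was 0.96 among peaks in both lists, and that of median widths, also 1.01, was 0.99 with peaks joined. Both crossed 1, so in the series list neither places II above or below the others. The replicate lists were not among the alternatives for score and width, and in both of them II had the lowest median score of the 5 autosomes. The share of gaps of 5 kb or less, 85.3%, was 69.4% with peaks joined and 77.0% in the upper 50%. The share of II peaks in both lists, 37.2%, was 34.1% when at least 50% of the series peak had to be covered, 2.49% with at least 50% of both peaks and 54.0% in the upper 50%, and 42.6% to 67.5% when only 1 replicate list was asked for. Under at least 50% of both peaks, 56.9% of replicate 1 and 34.9% of replicate 2 peaks were recovered, and 74.3% of replicate 2 peaks in its upper 50%. The coefficient of variation of coverage over windows, 0.64, was 0.79 with windows of 250 kb and ran from 0.59 to 0.70 in the single replicate lists. Which property of the lists causes these moves was not tested, apart from the reciprocal rule, which a narrow peak cannot meet inside a wide one. No paired analysis was possible because only the ChIP samples have peak lists and no test compares groups. Depth is unknown, so absence of a peak is not absence of COH-1.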
